A study of Mus musculus with 4 samples.

Results

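The 10 genes described here encode core components of the WNT and beta-catenin pathway, and they were taken by symbol from a ribosome profiling table of 25170 genes: the receptors Fzd7 and Lrp6, the destruction complex genes Axin1, Axin2, Apc, Gsk3a and Gsk3b, the effector Ctnnb1, and the DNA-binding factors Tcf7l1 and Lef1. All 10 symbols were in the table, and all 10 genes passed the filter on low values, a mean of at least 1 FPKM (fragments scaled by transcript length and library size). Lef1 did so only through its DMSO values. The cells were E14 mouse embryonic stem cells, a wild-type line derived from the inner cell mass, grown on gelatin with serum and leukemia inhibitory factor. The cells of 2 libraries received DMSO, the solvent, and those of 2 libraries received PD at 1 μM, each for 3 passages. The labels name the compound only as PD. No label ties the replicates to separate cultures, and p-values therefore reflect the spread among libraries, part or all of which may be technical. The series states its question as one about the kinase Mek and regulation after transcription, while what PD acts on is not given in the labels. In bulk footprint libraries without matched mRNA values, the amount of an mRNA and the density of ribosomes on it cannot be told apart, nor can fewer cells of a type and less RNA per cell.

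In the absence of WNT, a cytoplasmic complex built on the scaffolds Axin and Apc holds beta-catenin, the kinases Gsk3a and Gsk3b phosphorylate it, and it is degraded. A WNT protein bound to a Frizzled receptor and the co-receptor Lrp6 draws Axin to the membrane, and beta-catenin builds up and enters the nucleus, where it acts with TCF and LEF factors. In mouse embryonic stem cells Tcf7l1 is known as a repressor of pluripotency genes that beta-catenin relieves, and inhibitors of Gsk3 and of Mek are used together to hold the naive state.

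The PD libraries were the shallower ones, so depth went with treatment and its part in the results was not tested. Depth, read from the smallest steps between FPKM values relative to DMSO replicate 1, was 1.42 in the other DMSO library and 0.464 and 0.201 in the PD libraries, replicate 2 being the shallowest. All 8 embryonic stem cell markers examined, among them Pou5f1, Sox2 and Zfp42, passed the filter, and their summed level was 2154 to 2186 FPKM in DMSO and 2048 to 3696 FPKM in PD. Dppa5a alone held 1414 and 1633 FPKM of it in DMSO and 1421 and 3203 FPKM in PD, and the median log2 difference of the 8 markers was -0.27. None of the 6 endoderm and none of the 6 mesoderm markers passed it, with summed levels of at most 1.71 and 0.939 FPKM in any library. Of 8 fibroblast markers, only Thy1 and Vim passed, Lum and Postn were listed at 0 throughout, and Col1a1, Col1a2, Col3a1 and Dcn stayed at or below 1.12 FPKM. The fibroblast list summed to 31.9 and 106 FPKM in DMSO and to 189 and 209 FPKM in PD, nearly all of it from Vim, and its part in the results was not tested. Of 6 neural markers 3 passed, and the list summed to 33.2 and 60.9 FPKM in DMSO and to 49.9 and 59.5 FPKM in PD. In the same order, Tubb3 alone held 30.0 and 56.5 FPKM of it in DMSO and 45.3 and 56.7 FPKM in PD.

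None of the 10 genes passed the test between PD and DMSO, which was limma on log2(FPKM + 1) with Benjamini-Hochberg adjustment over all 9741 genes tested. Of those 9741 genes 0.257% passed, 0.0308% higher and 0.226% lower in PD. Of the 8863 tested genes that RefSeq lists as protein-coding, the class of all 10 genes, 0 passed and 457 had an unadjusted p under 0.05 (limma), so the 25 calls were all outside that class. Adjusted p-values of the 10 genes ran from 0.803 for Fzd7 to 0.995 for Lrp6 (limma). Fzd7 and Axin1 had an unadjusted p under 0.05, as did 5.76% of all tested genes. For Fzd7 and Axin1 each PD library also lay below each DMSO library, as for 18.3% of all genes, and for Axin2 each lay above, as for 17.5%. The libraries of the other 7 genes overlapped between the groups. The median log2 difference of the 10 genes was -0.18, beside -0.02 over all genes tested. Without PD replicate 2 the median of the 10 genes was 0.07, and without PD replicate 1 it was -0.46. Voom on recovered reads, which covered 4 of the 10 genes, gave 0 calls as well.

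**Figure D1:**
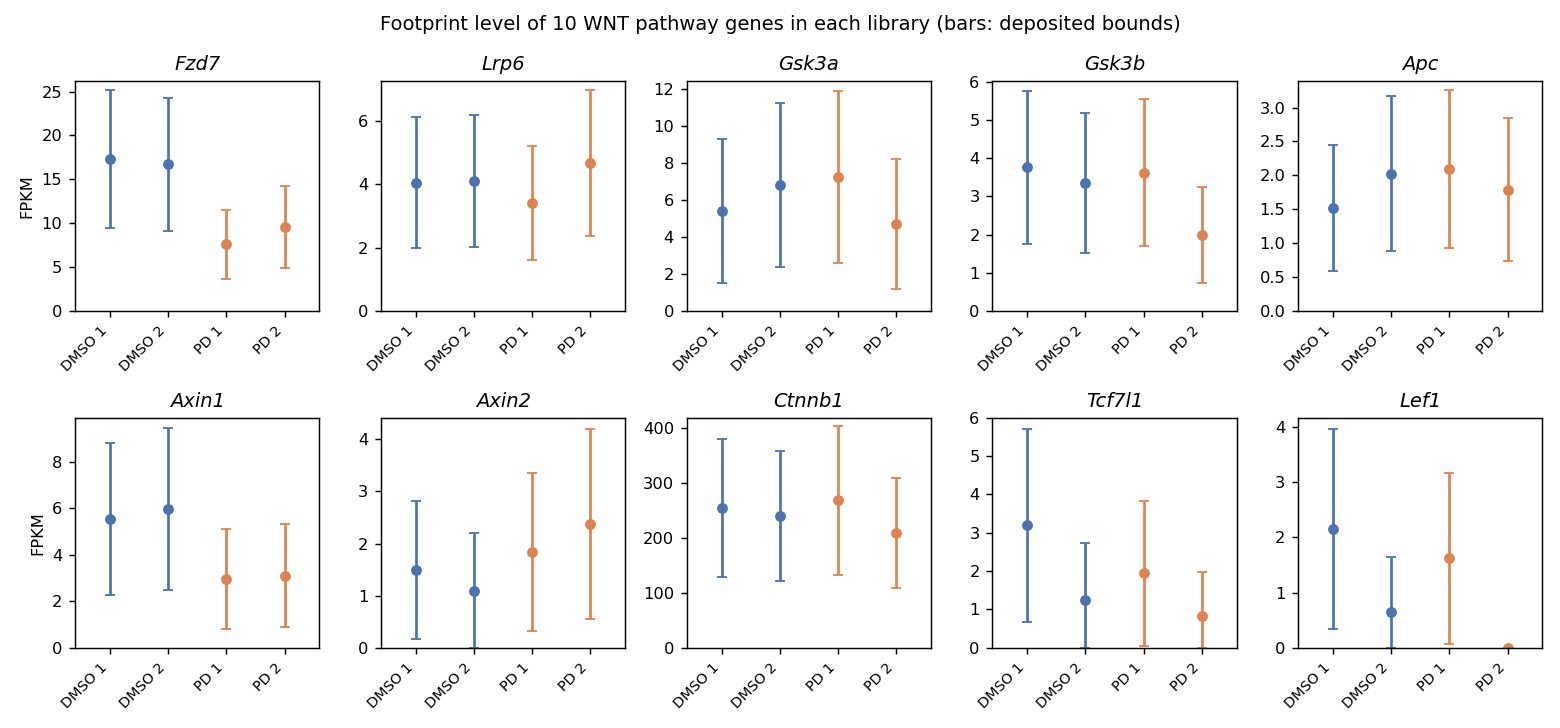
FPKM (vertical axis, starting at 0, with its own scale in each panel) of the 10 genes in each DMSO (blue) and PD (orange) library; bars are the confidence bounds deposited with each value. Fzd7 and Axin1 have both PD points below both DMSO points and Axin2 has both above, while the bounds of these 3 genes still share a range across all libraries.

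Fzd7, a Frizzled receptor for WNT ligands that is prominent in pluripotent cells, had the largest log2(FPKM + 1) difference of the 10 genes with all libraries and a pseudocount of 1 FPKM. That of Lef1 was larger with a pseudocount of 0.1 FPKM, without PD replicate 1 and without DMSO replicate 2. Footprints of Fzd7 stood at 17.3 and 16.7 FPKM with DMSO and at 7.58 and 9.55 FPKM with PD. The PD level was thus 0.504 of the DMSO level, and neither PD library reached the DMSO range. The group means were 17.0 ± 0.414 and 8.56 ± 1.39 FPKM (SD, n = 2). The log2 difference was -0.92 (SE 0.26), with a 95% interval, not adjusted for the number of genes, of -1.62 to -0.22 (limma adjusted p = 0.803). The gap exceeded the spread within either group, since the DMSO replicates differed by 0.05 and the PD replicates by 0.30 on the same log2 scale.

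Whole reads could be recovered for Fzd7 from the FPKM steps, at 369 and 505 with DMSO and 75 and 41 with PD. These are the lowest whole numbers the values allow, and true counts may be a multiple of them. Per unit of relative depth the PD rate was 0.482 of the DMSO rate, with an exact 95% interval of 0.394 to 0.586 that covers counting error only. The bounds deposited with each value were wider, at 9.48 to 25.1 and 9.13 to 24.3 FPKM in DMSO and 3.69 to 11.5 and 4.84 to 14.3 FPKM in PD, and those of the groups overlap. Fzd7 lies on chromosome 1, at 59482147 to 59486955 in mm10. The log2 difference stayed between -1.07 and -0.77 in all 14 alternative analyses, without passing in any.

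Promoter windows, from 250 bases before to 50 bases after a RefSeq start site (GRCm38.p6), were held for 7 of the 10 genes, with 11 windows in all. For the TCF/LEF site only the letters CTTTGAT were searched, on both strands, and other forms of the site were not. These letters were in none of these 11 windows and in 3.73% of all 32851 windows. The core CTTTG, which overlaps these letters, was in 53.9% of all windows. It was in windows of 5 of the 7 genes (Fzd7, Gsk3a, Gsk3b, Tcf7l1 and Lef1). A gene was counted if any of its windows held the core, so this count is not on the scale of the share of windows. For the genes with 1 window and a core before the start site, the stretch around it is shown on the strand of the gene, 5′ to 3′, with the core or its reverse complement in capitals, so that the letters behind the count can be read.
Fzd7: ccacagagaaaaCAAAGcgcgctattgga
Gsk3a: gactgtgtttttCAAAGtgcttccaagtt
Gsk3b: ttctccccgcctCAAAGagggaggggagg
Tcf7l1: gccctgtcaaaaCTTTGtcgccgcagcgg
The stretches are at chr1:59482007-59482035 on the plus strand, chr7:25237991-25238019 on the minus strand, chr16:38088913-38088941 on the plus strand and chr6:72789057-72789085 on the minus strand, and the cores begin 128, 156, 76 and 28 bases before the RefSeq start site, which for Gsk3b lies inside the locus given in the table. With a core in most windows of all genes these matches set the genes apart from no others, and they are letters, not sites shown to bind a factor.

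Lrp6, the co-receptor that is phosphorylated when WNT binds, showed no such gap. It stood at 4.06 and 4.11 FPKM with DMSO and at 3.41 and 4.68 FPKM with PD, so that the DMSO values lay between the PD values. Its log2 difference was -0.02 (SE 0.29), with a 95% interval of -0.81 to 0.77 (limma adjusted p = 0.995). The sign turned with quantile normalization, to 0.044, and without PD replicate 1, to 0.16. The interval, on the log2(FPKM + 1) scale, spans 0.57 to 1.70 times the DMSO level. Recovered reads were 172 and 247 in DMSO and 67 and 40 in PD, and the rate ratio was 0.928 (exact 95% interval 0.743 to 1.15, counting error only). The gene lies on chromosome 6, at 134446478 to 134566913.

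Axin1, the constitutive scaffold whose amount is thought to limit the destruction complex, was the other gene with low PD values. It stood at 5.54 and 5.98 FPKM with DMSO and at 2.95 and 3.09 FPKM with PD, with means of 5.76 ± 0.309 and 3.02 ± 0.0977 FPKM (SD, n = 2). The replicates of each group lay close together, and the groups lay apart. At the recovered reads given below, the relative counting error was 21.3% and 31.6% in the PD libraries, more than the gap between them. The log2 difference was -0.75 with an SE of 0.27 and an unadjusted 95% interval of -1.47 to -0.03 (limma adjusted p = 0.837). Recovered reads were 89 and 136 in DMSO but only 22 and 10 in PD, and the rate ratio was 0.517 (exact 95% interval 0.345 to 0.75, counting error only). Without a library in turn the difference ran from -0.79 to -0.70, and it passed in no alternative. Axin1 lies on chromosome 17, at 26138686 to 26195811.

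Axin2, the second scaffold and a widely used readout of the pathway because beta-catenin induces its transcription, went the other way at a low level. It stood at 1.49 and 1.09 FPKM with DMSO and at 1.84 and 2.38 FPKM with PD. Both PD values were above both DMSO values, with means of 2.11 ± 0.384 and 1.29 ± 0.283 FPKM (SD, n = 2). The log2 difference of 0.44 had an SE of 0.35 and a 95% interval of -0.49 to 1.37 (limma adjusted p = 0.852). The difference was 0.67 with a pseudocount of 0.1 FPKM and 0.71 with voom on recovered reads. These values rest on 28 and 29 recovered reads in DMSO and on 16 and 9 in PD. The rate ratio of 1.59 had an exact 95% interval of 0.954 to 2.59, so at this depth counting error alone spans no difference. Axin2 lies on chromosome 11, at 108920349 to 108950781.

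**Figure D2:**
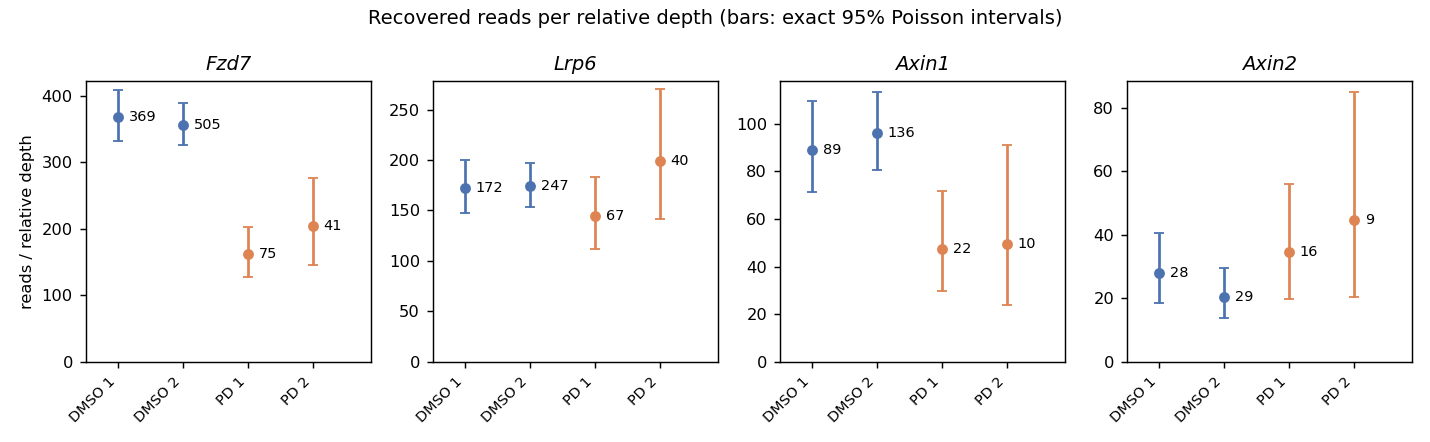
Recovered reads divided by relative depth (vertical axis, starting at 0) for the 4 genes whose FPKM steps gave whole reads, in each DMSO (blue) and PD (orange) library; numbers are the reads and bars are exact 95% Poisson intervals, which cover counting error only. Fzd7 intervals of the groups do not meet, those of Lrp6, Axin1 and Axin2 overlap, and PD replicate 2 has the widest bars.

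FPKM is scaled by transcript length, so the 2 scaffolds were set against each other within a library. Untranslated parts may be included in that length, and their share in the ratios was not tested. The ratio of Axin2 to Axin1 was 0.269 and 0.182 with DMSO and 0.622 and 0.77 with PD. Axin1 was therefore the higher of the pair in every library, by a smaller factor in PD. The log2 ratio differed by 1.64 between the groups (exact permutation test, two-sided, p = 0.333, the smallest that 2 against 2 libraries can give). It was 1.40 when the upper bounds were used in place of the values, and 1.36 to 1.92 when each library was left out.

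Apc, the large scaffold that binds beta-catenin within the complex, stood at 1.51 and 2.03 FPKM in DMSO and at 2.10 and 1.79 FPKM in PD. The groups overlapped, and the log2 difference was 0.09 (SE 0.33), with a 95% interval of -0.80 to 0.99 (limma adjusted p = 0.9707). Its sign turned without DMSO replicate 1, to -0.04.

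The Gsk3 kinases, a pair of close relatives that act redundantly on beta-catenin, gave values that overlapped between groups. Gsk3a stood at 5.40 and 6.82 FPKM in DMSO and at 7.24 and 4.69 FPKM in PD, with a log2 difference of -0.05 (SE 0.33, limma adjusted p = 0.989; 95% interval -0.92 to 0.83). Gsk3b stood at 3.76 and 3.35 FPKM in DMSO and at 3.62 and 1.99 FPKM in PD, so that only PD replicate 2, the shallowest library, lay below the DMSO range. The log2 difference of Gsk3b was -0.29 (SE 0.35, limma adjusted p = 0.899). Without PD replicate 2 it was 0.02, and that of Gsk3a was 0.22. Without DMSO replicate 2 that of Gsk3a was 0.10.

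FPKM was higher for Gsk3a than for Gsk3b in every library. Long untranslated parts can lower FPKM if they were counted, and their share in this was not tested. The ratio of Gsk3b to Gsk3a was 0.697 and 0.491 with DMSO and 0.50 and 0.423 with PD. The log2 ratio differed by -0.35 between the groups (exact permutation test, two-sided, p = 0.667), and it ranged from -0.60 to -0.09 when each library was left out. Gsk3a lies on chromosome 7, at 25228259 to 25237851, and Gsk3b on chromosome 16, at 38085064 to 38246084.

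Ctnnb1, which encodes beta-catenin, both the transcriptional effector of the pathway and a partner of cadherins, had by far the highest FPKM of the 10 genes. It stood at 254 and 239 FPKM with DMSO and at 268 and 208 FPKM with PD. The DMSO values lay between the PD values, and the mean over the 4 libraries was above that of 99.3% of protein-coding genes. The log2 difference was -0.06 (SE 0.27), with a 95% interval of -0.79 to 0.67 (limma adjusted p = 0.978). On the log2(FPKM + 1) scale that interval spans 0.576 to 1.59 times the DMSO level. The sign turned without PD replicate 2, to 0.12. Ctnnb1 lies on chromosome 9, at 120933400 to 120960507.

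The DNA-binding factors had the widest spread. Tcf7l1, the main TCF family repressor of embryonic stem cells, stood at 3.19 and 1.25 FPKM in DMSO and at 1.94 and 0.813 FPKM in PD. The replicates of a group differed by 0.90 and 0.70 on the log2(FPKM + 1) scale, more than the log2 difference between the groups of -0.41 (SE 0.50, limma adjusted p = 0.902). Without DMSO replicate 1 that difference was 0.04, and without DMSO replicate 2 it was -0.86. It was -0.63 with a pseudocount of 0.1 FPKM and -0.23 with quantile normalization. Lef1, a factor that mostly activates targets together with beta-catenin, stood at 2.16 and 0.653 FPKM in DMSO and at 1.62 FPKM in PD replicate 1, and was listed at 0 in PD replicate 2. It was the only one of the 10 genes with a 0, which can be a failed estimate in such tables rather than a lack of footprints. Which of these it was could not be told from the values, and the fit took the 0 as measured. With means of 1.41 FPKM in DMSO and 0.809 FPKM in PD, Lef1 passed the filter only through its DMSO values. Its log2 difference was -0.50 (SE 0.68, limma adjusted p = 0.909), and without PD replicate 2 it was 0.20. That value depended on the pseudocount because of the 0, and was -0.77 with 0.5 FPKM and -1.65 with 0.1 FPKM. With quantile normalization it was -0.18. The ratio of Tcf7l1 to Lef1 was 1.48 and 1.92 in the DMSO libraries and 1.20 in PD replicate 1. Tcf7l1 lies on chromosome 6, at 72626371 to 72789045, and Lef1 on chromosome 3, at 131110297 to 131224357.

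**Figure D3:**
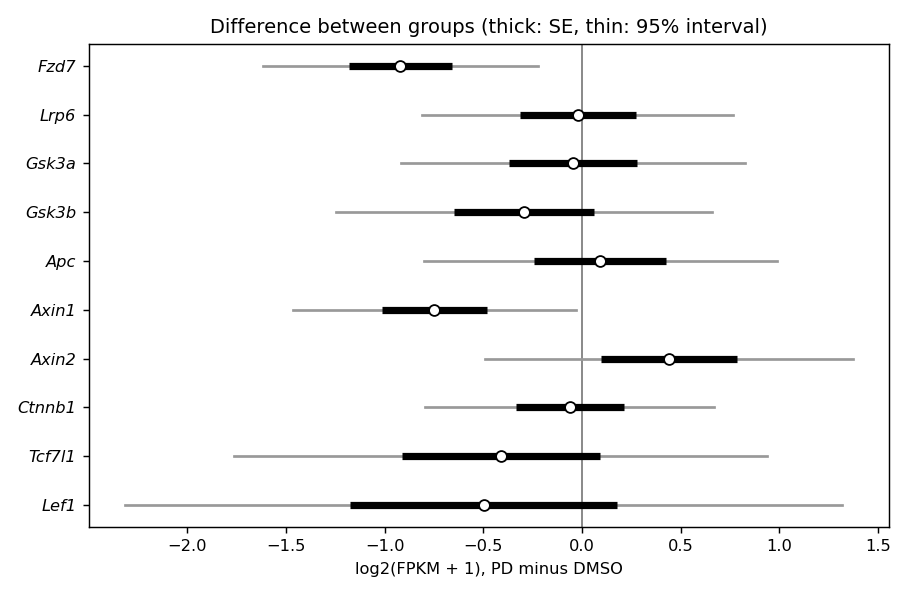
Difference of log2(FPKM + 1) between PD and DMSO (horizontal axis, PD minus DMSO) for the 10 genes, as fitted by limma; circles are the differences, thick bars 1 SE and thin bars 95% intervals that are not adjusted for the number of genes. The intervals of Fzd7 and Axin1 lie below 0 and those of the other 8 genes include it, and no gene passed after adjustment.

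Highest in the order of levels were Ctnnb1, at a mean of 247 FPKM in DMSO, and Fzd7, at 17.0 FPKM, whose ranges lay apart from each other and from all others in both groups. In DMSO, Gsk3a and Axin1 came next with overlapping ranges, followed by Lrp6 and Gsk3b, each apart from its neighbours. Tcf7l1, Apc, Lef1 and Axin2 closed the order at means of 2.22 down to 1.29 FPKM, and none of them lay apart from the next. In PD, Lrp6 stood above Axin1 with ranges apart, at means of 4.04 and 3.02 FPKM, whereas in DMSO Axin1 stood above Lrp6 with ranges apart, at 5.76 and 4.08 FPKM. From Axin1 downward in PD, through Gsk3b, Axin2, Apc, Tcf7l1 and Lef1, neighbouring ranges overlapped. The sources used here do not give whether footprints were counted over coding sequence or whole transcripts, and genes with long untranslated parts would appear lower in the second case.

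To find genes with a like pattern, the 4 log2(FPKM + 1) values of each gene, less their mean, were compared by Euclidean distance among tested genes of at least 5 FPKM. Nearest to Ctnnb1 were Atm, Zmym4 and Kdm3b, at distances of 0.0151, 0.0322 and 0.0343. The median gene lay at 0.669, and a gene flat across the libraries would lie at 0.273. Nearest to Axin2 were Mir30e, Pccb and Ccnc, at 0.0679, 0.0681 and 0.0684, where the median was 0.791 and a flat gene would lie at 0.508. Mir30e is a microRNA gene and not a translated one, listed at 91937 to 145622 FPKM. These distances rest on 4 libraries and on 5728 genes compared with Ctnnb1 and 5729 with Axin2, and are given as a description.

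The wider pathway was described with 119 further genes in 10 lists ordered by role, of which 118 were in the table and 57 passed the filter. Of these 57 genes 0 passed the test, and 3 had an unadjusted p under 0.05 (limma). The PD libraries both exceeded the DMSO libraries for 12 of them and both lay under them for 5, together 29.8% against 35.8% over all tested genes. Their median log2 difference was -0.01. Nanog, the ligand carrier Wls and the cadherin Cdh1 were those 3 genes.

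WNT ligands were barely covered. None of the 19 ligand genes passed the filter, and 8 were listed at 0 in every library. Wnt5b, at 1.35 and 1.12 FPKM in DMSO, had 0.243 FPKM in PD replicate 1 and was listed at 0 in PD replicate 2. Wnt3a, which is used to stimulate the pathway in culture, was listed at 0 in 3 libraries and stood at 2.10 FPKM in PD replicate 2.

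Genes that process or carry ligands were better covered. Of 3 tested, 2 had both PD libraries above DMSO. The share without overlap, 66.7%, stood beside 35.8% over all tested genes. Wls, the membrane protein that takes WNT proteins to the cell surface, stood at 1.90 and 2.99 FPKM in DMSO and at 6.01 and 10.5 FPKM in PD, resting on 17, 38, 25 and 19 recovered reads. On the log2 scale PD exceeded DMSO by 1.40 (SE 0.39, limma adjusted p = 0.803), and its rate ratio was 2.91 (exact 95% interval 1.91 to 4.40, counting error only). Porcn, the acyltransferase that lipidates WNT proteins, stood at 2.05 and 2.29 FPKM in DMSO and at 5.22 and 2.58 FPKM in PD. Notum, an extracellular enzyme that removes that lipid, overlapped between the groups, at 35.1 and 24.8 FPKM in DMSO and 33.6 and 32.5 FPKM in PD.

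Among the 7 other tested receptors, 3 had both PD libraries above DMSO and none had both below, where 17.5% and 18.3% of all tested genes did. Their difference from Fzd7 was not tested. Fzd10 stood at 2.64 and 0.821 FPKM in DMSO and at 3.34 and 6.16 FPKM in PD (log2 difference 1.12, SE 0.51). Ror2, a receptor of WNT signalling that does not use beta-catenin, stood at 1.54 and 2.46 FPKM in DMSO and at 3.20 and 3.12 FPKM in PD. Fzd2, a close relative of Fzd7, had means of 2.72 and 3.13 FPKM. Lrp5, the relative of Lrp6, overlapped at 5.39 and 7.83 FPKM in DMSO and 5.998 and 5.61 FPKM in PD.

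Of 6 tested extracellular modulators, 2 secreted Frizzled-related proteins, which bind WNT, had both PD libraries above DMSO. The share without overlap in this list, 33.3%, was near the 35.8% over all tested genes. Sfrp1 stood at 11.1 and 6.66 FPKM in DMSO and at 17.3 and 14.7 FPKM in PD, a log2 difference of 0.82 (SE 0.34, limma adjusted p = 0.837). Sfrp5 had a log2 difference of 0.96 from only 6 and 1 recovered reads in DMSO and 8 and 2 in PD. With means of 0.426 FPKM in DMSO and 1.73 FPKM in PD, Sfrp5 passed the filter only through its PD values. The other 4 tested genes of this list overlapped.

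Inside the cell, partners of the destruction complex had a median log2 difference of -0.16 over 11 tested genes. Skp1a, a subunit of the ubiquitin ligase that marks phosphorylated beta-catenin among many other proteins, was the only one without overlap. That is a share of 9.09%, against 35.8% over all tested genes. Skp1a stood at 207 and 144 FPKM in DMSO and at 107 and 95.1 FPKM in PD (log2 difference -0.77, SE 0.30). Btrc, the subunit that recognises beta-catenin, overlapped, with means of 3.78 and 4.64 FPKM. Of 8 tested Dishevelled and casein kinase genes, 25% had no overlap, also below the 35.8% over all tested genes. Csnk1a1, which primes beta-catenin for Gsk3, stood at 34.0 and 32.5 FPKM in DMSO and at 22.9 and 29.3 FPKM in PD. Dvl1, a transducer between receptor and Axin, had means of 0.751 FPKM in DMSO and 1.59 FPKM in PD, and passed the filter only through PD. Its more abundant relative Dvl2 overlapped, at means of 18.6 and 18.3 FPKM.

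Nuclear factors had a median of -0.16 over 12 tested genes. The share without overlap in this list, 25%, was below the 35.8% over all tested genes. The corepressors Ctbp2 and Tle3 had both PD libraries below DMSO, at means of 62.0 and 39.8 FPKM and of 6.70 and 4.41 FPKM. The coactivator Crebbp had both above, by a log2 difference of 0.12 (SE 0.26). Tcf7, a relative of Lef1, overlapped at means of 3.27 and 2.79 FPKM. Tcf7l2 stood at 0.625 and 0.857 FPKM in DMSO, was listed at 0 in both PD libraries, which may likewise be failed estimates, and was under the filter.

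Of 10 further listed targets only Ccnd1 and Myc passed the filter, and both overlapped between groups. Sp5, a direct target in stem cells, stood at 0.342 FPKM in DMSO replicate 1 and was listed at 0 in the other libraries. Of 4 genes known to be repressed by Tcf7l1 in embryonic stem cells, Nanog and Klf2 had both PD libraries above DMSO, as did 17.5% of all tested genes. Klf2 stood at 69.4 and 61.6 FPKM in DMSO and at 87.7 and 77.7 FPKM in PD (log2 difference 0.33, SE 0.25), and Nanog had a log2 difference of 0.98. Esrrb and Tfcp2l1 overlapped, and none of the 4 passed.

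Beta-catenin also links cadherins to the cytoskeleton, and 4 of 6 adhesion partners were tested. Of these, 2 had no overlap, 1 in each direction, a share of 50% beside 35.8% over all tested genes. The other 2, Ctnnd1 and Jup, overlapped, with log2 differences of 0.22 and -0.33. Cdh1, the epithelial cadherin, stood at 110 and 123 FPKM with DMSO and at 60.6 and 58.1 FPKM with PD. The PD level was 0.508 of the DMSO level, with no overlap and close replicates. The log2 difference was -0.96 (SE 0.24, limma adjusted p = 0.766). Ctnna1, alpha-catenin, which joins beta-catenin to actin, had both PD libraries above DMSO, at 74.1 and 96.0 FPKM in DMSO and at 104 and 115 FPKM in PD (log2 difference 0.38, SE 0.27).

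**Figure D4:**
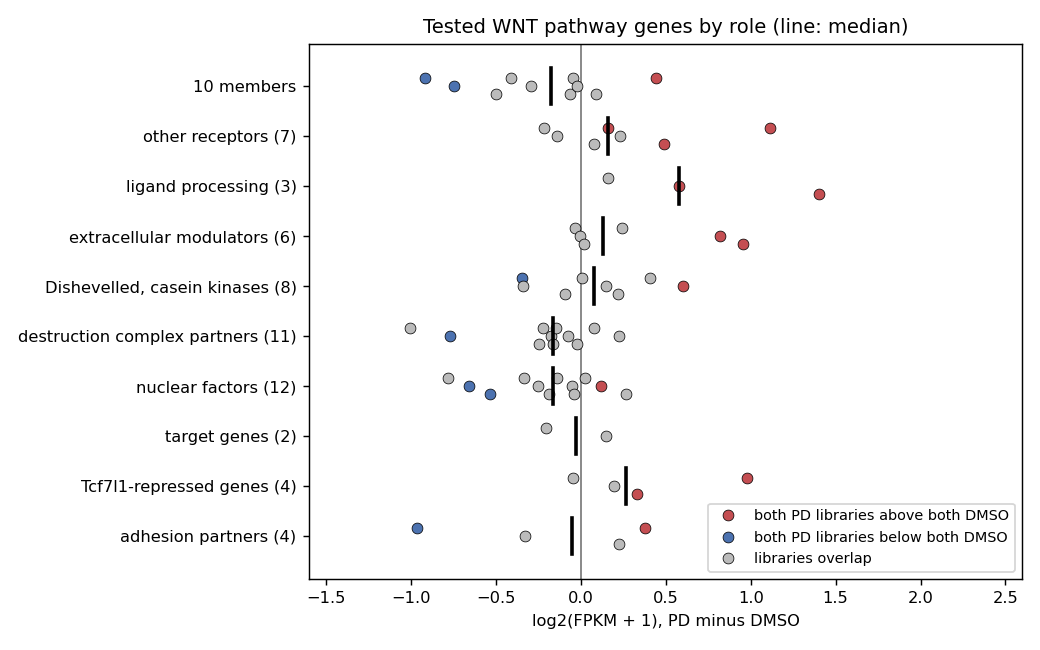
Difference of log2(FPKM + 1) between PD and DMSO (horizontal axis) for the 10 genes and for the tested genes of 9 further lists by role, with the number tested in brackets; each point is a gene, lines are medians, and colours show whether both PD libraries lie above (red) or below (blue) both DMSO libraries or overlap (grey). Wls is the point farthest to the right at 1.40, and no point passed the test; no WNT ligand gene was tested.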

How the data were processed

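Ribosome-protected fragments were sequenced in 2 DMSO and 2 PD libraries. The authors deposited FPKM per gene and library with a lower and an upper bound, per the file headers. Cufflinks, STAR, Bowtie2, Trimmomatic and FastQC, and the genome mm10, are listed in the submitters' processing notes; tool versions are not given in the sources used here. A single entry with a failed status (1 gene) was left out, and 1 was added to each locus start. Genes averaging 1 FPKM or more entered a limma 3.58.1 fit of log2(FPKM + 1), run in R 4.3.3 (lmFit, eBayes with a trend, group as the only term, 2 residual degrees of freedom), with Benjamini-Hochberg adjustment and 0.05 as the threshold; the fit was tested on simulated data. Log2 differences use this scale, and so understate changes of low genes, except where another pseudocount, voom or a log2 ratio is named. Whole reads were recovered, within 0.01 reads, for 66.7% of 10161 genes with a value above 0 in every library (0.118% with wrong library steps). The 10 genes and the lists were chosen with earlier results of these data known. Named from each list were up to 3 tested genes without overlap between groups and with the largest differences, and a list of 10 partners of the 10 genes; Wnt5b, Wnt3a, Notum and genes named as having overlapped were added after their values were seen. Of 119 listed genes, Aes was found as Tle5 and Tiki1 was not found.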

Additional observations from a re-analysis of the deposited data

How the results depend on the processing

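0 of the 10 genes and 0 of the wider pathway passed in all 14 alternatives to the main analysis: other pseudocounts (0.1 and 0.5 FPKM), filters (none and 5 FPKM), scalings, variance models, the replicate block, voom on recovered reads, and each library left out. The filter of 5 FPKM kept 3 of the 10 genes, Ctnnb1, Gsk3a and Fzd7, and voom covered 4, so these settings say nothing of the others. With 1 library left in a group, it is assumed to vary like the other group. Fzd7, Axin1 and Axin2 kept their direction wherever they were fitted. The pseudocount of 0.1 FPKM moved Lef1 to -1.65, Tcf7l1 to -0.63 and Axin2 to 0.67. With quantile normalization Lrp6 turned to 0.044. Leaving out each library, the log2 difference also turned for Ctnnb1 (-0.25 to 0.12), Gsk3a (-0.31 to 0.22, and 0.10 without DMSO replicate 2), Gsk3b (-0.61 to 0.023), Apc (-0.043 to 0.22), Tcf7l1 (-0.86 to 0.037), Lef1 (-1.19 to 0.20) and Lrp6 (-0.21 to 0.16), and the cause was not tested. The median of the 10 genes ran from -0.46 to 0.071 without a library in turn and was -0.51 with voom over 4 genes; that of the wider pathway was 0.12 with voom and ran from -0.014 to 0.083 without a library. Over all genes, 3 passed higher and 22 lower in PD, and 0 of 8863 protein-coding genes passed; voom gave 0 and 0, and leaving out a library gave 0 to 27 higher and 0 to 20 lower. With the replicate block the counts were 2 higher and 17 lower, and 0 of the 10 genes passed; labels do not say that replicate numbers mark shared cultures, and libraries of 1 number deviated together at r = 0.0992 across genes. The block left the ratio of Axin2 to Axin1 at 1.64 and that of Gsk3b to Gsk3a at -0.35. The lower bounds gave no Axin2 ratio because 1 was 0. Recovered reads in the PD libraries were 75 and 41 for Fzd7, 67 and 40 for Lrp6, 22 and 10 for Axin1 and 16 and 9 for Axin2, and these set the counting error of each.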
